A study of Rattus norvegicus with 12 samples.

Results

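Nfkbia, Nfkb1 and Icam1 are 3 genes that the transcription factor NF-kB switches on, and their transcripts were followed here in T cells of 4 body compartments during experimental autoimmune encephalomyelitis, a disease model in which T cells attack the central nervous system (CNS). The rows were chosen by Ensembl rat identifier, ENSRNOG00000007390 for Nfkbia, ENSRNOG00000023258 for Nfkb1 and ENSRNOG00000020679 for Icam1, and are 3 of the 26405 genes counted. All 3 passed the filter on low counts, which left 11498 genes. The count tables carry no gene names, so the names are those under which these identifiers were selected.

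The cells were CD4+ T cells specific for the myelin antigen MBP that express green fluorescent protein, sorted in the cold from wild type Lewis rats. In total 12 libraries of messenger RNA were made, 3 each from blood, cerebrospinal fluid (CSF), spinal cord meninges and CNS parenchyma. All 4 groups share strain, genotype and cell type, and the labels distinguish them by compartment. The sources used here give no age, time of sampling or number of animals. They also do not tell whether the 3 libraries of a group are separate animals, so a p-value reflects the spread among these libraries only, which can be technical in part. Defining markers of T cells and of other cells were not analysed here, because identifiers could not be paired with names, and what part other cells have in the values below was not tested. In bulk libraries such as these, fewer cells expressing a gene and less RNA per cell cannot be told apart.

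In resting cells NF-kB dimers are held in the cytoplasm by inhibitory IkB proteins. Signals from the antigen receptor, costimulatory receptors and inflammatory cytokines lead to phosphorylation and breakdown of IkB, and the freed dimers enter the nucleus. Nfkbia encodes IkB alpha, the inhibitor that is resynthesised under NF-kB control and so closes a negative feedback loop. Nfkb1 encodes a precursor protein that is processed to a DNA-binding subunit of the factor and that can itself hold back other subunits. Icam1 encodes an adhesion molecule of the immunoglobulin superfamily, a ligand of the integrin LFA-1, which T cells themselves carry and raise on activation.

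The promoter regions of the 3 genes hold a common sequence word, and these stretches are shown because the genes were grouped as targets of 1 factor. Windows of 300 bases around the annotated start, 250 before and 50 after it, were taken from RefSeq (build GRCr8) and all 3 genes matched by symbol. The longest word present in all 3 windows on either strand was the 10-letter word GGAATTTCCA. The lines give 30 bases of each gene's own strand, 5′ to 3′, with that word or its reverse complement in capitals.
Nfkbia (GRCr8, chr6:78597085-78597114, minus strand): ctgactggctTGGAAATTCCccgcgcctga
Nfkb1 (GRCr8, chr2:226805439-226805468, minus strand): gacgtcagtgGGAATTTCCAgccaggaagt
Icam1 (GRCr8, chr8:27829616-27829645, plus strand): tacttcagttTGGAAATTCCtgggtcgcag

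The word began 32 bases upstream of the annotated start in Nfkbia and 219 bases upstream in Icam1, and at base 5 of the transcript in Nfkb1. It occurred once in each of the 3 windows and in 37 of all 33469 promoter windows (0.111%), searched on both strands. As the word was picked for being shared by these genes, its rarity is a description and not a test. The kappaB consensus GGGRNWYYCC is a pattern that overlaps the word and allows several letters at some positions. In it R is A or G, W is A or T, Y is C or T and N is any base. This pattern had 1 match in the Nfkbia window and 1 in the Nfkb1 window, both at the word. It had 0 matches in the Icam1 window, where the stretch TGGAAATTCC has T in place of the first G of the pattern. Of all windows, 4.18% held at least 1 match. In each gene another RefSeq transcript starts further upstream than the start used, and a match of letters is not a measured binding site.

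Counting error was small for these genes. Libraries held 11277725 to 22056664 gene counts each, and the lowest count of any of the 3 genes in any library was 799, in blood replicate 3, for which counting error alone is 3.54%. Blood replicate 3 and meninges replicate 2 stood apart in the share of entries listed as aligned to several places, at 65.2% and 61.4% against 35.8% to 43.9% in the others. Levels are given as CPM, a gene's count per 1000000 counts of the library, after scaling by the trimmed mean of M values, and are compared only within a gene. An adjusted p under 0.05 over all genes tested counted as a difference, from edgeR's quasi-likelihood test unless another is named.

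Each of the 3 transcripts differed among the 4 compartments and had its lowest mean in blood and its highest in CNS parenchyma. The F test over the compartments gave an edgeR adjusted p of 1.43e-05 for Nfkbia, 0.000164 for Icam1 and 0.00295 for Nfkb1, where 53.8% of all genes tested differed. From blood to parenchyma the mean rose 4.73-fold for Nfkbia, 2.14-fold for Icam1 and 1.64-fold for Nfkb1. All 3 genes were called higher in that comparison, against a background of 24.6% of genes called higher. The genes were chosen with earlier results of these data known, so shares of all genes set beside their calls describe and do not test.

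**Figure D1:**
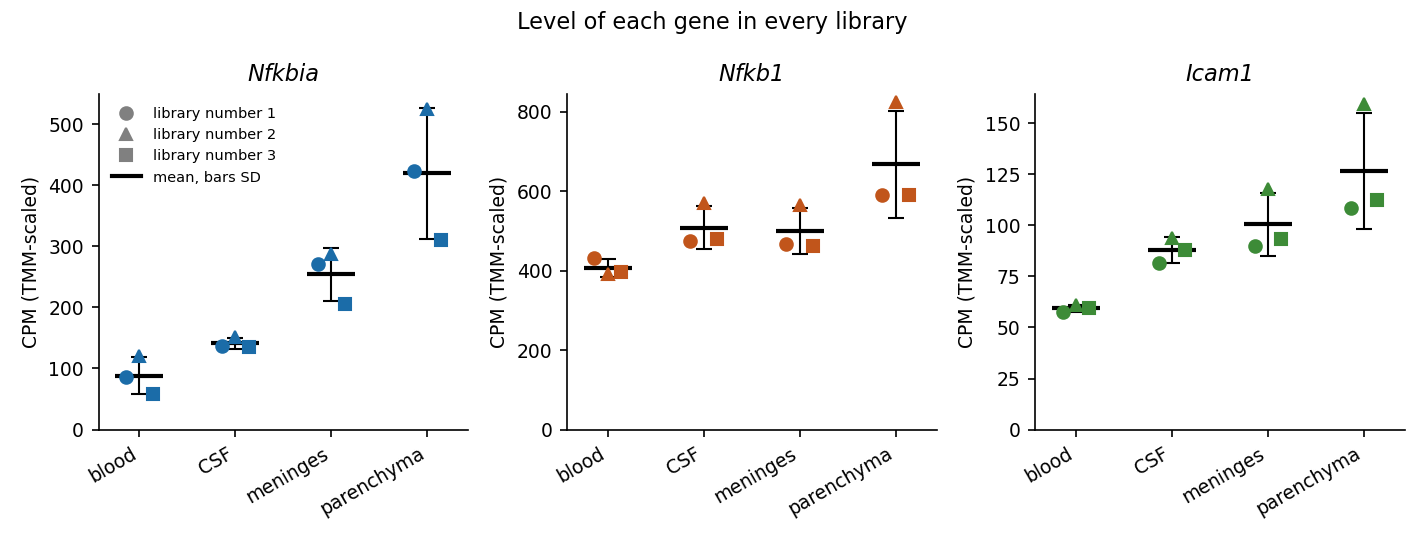
Level of Nfkbia, Nfkb1 and Icam1 (vertical axis, CPM) in each of the 12 libraries by compartment, with 1 symbol per library number, the mean as a line and the SD as bars. In each panel the 3 parenchyma libraries lie above the 3 blood libraries, and the axes differ between genes.

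Nfkbia, the IkB alpha gene, had the widest range. Its level was 86.7, 120 and 58.8 CPM in blood replicates 1, 2 and 3, and 137, 152 and 136 CPM in the CSF replicates. Meninges replicates stood at 270, 288 and 205 CPM, and parenchyma replicates at 424, 524 and 310 CPM. The 4 compartments did not overlap with each other in any of the 6 pairs, and blood, CSF, meninges and parenchyma followed in that order. Of all genes tested, 11.5% (meninges above CSF) to 28.1% (parenchyma above blood) were separated in this direction in a single pair. The share separated in all 6 pairs was not computed. The mean ± SD (n = 3) was 88.4 ± 30.5 CPM for blood, 141 ± 8.78 for CSF, 254 ± 43.7 for meninges and 419 ± 107 for parenchyma. On the log2 scale, CSF had covered 32.4% and meninges 69.0% of the distance between the means of blood and parenchyma.

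The change of Nfkbia from blood to parenchyma was among the larger ones in these libraries. It came to 2.24 on the log2 scale (SE 0.23, adjusted p = 4.01e-06), and 2.25% of all genes tested had a higher log2 fold change. From blood to meninges it was 1.52 (SE 0.23, adjusted p = 0.000202), and from CSF to parenchyma 1.57 (SE 0.23, adjusted p = 0.000206). Requiring a change beyond 1.5-fold, Nfkbia still passed in these 3 comparisons, as did Icam1 from blood to parenchyma, while none of the other calls of the 3 genes did. The share of all genes passing that stricter test was not computed.

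The smaller step of Nfkbia from blood to CSF lost its call when any 1 library of either group but blood replicate 2 was left out. It was 1.60-fold, with a log2 fold change of 0.68 (SE 0.23, adjusted p = 0.0317), while 17.5% of genes were called higher in CSF. The call was lost without blood replicate 1 (log2 fold change 0.66, adjusted p = 0.0841) or blood replicate 3 (0.46, adjusted p = 0.117), and without CSF replicate 1, 2 or 3 (0.70, 0.63 and 0.71, adjusted p = 0.0566, 0.0844 and 0.0531). It was also lost without both libraries rich in reads aligned to several places, blood replicate 3 and meninges replicate 2 (0.47, adjusted p = 0.0993). Among these fits, which all had fewer libraries, the log2 fold change moved most without blood replicate 3. Blood replicate 3 held the lowest Nfkbia value of all libraries. With all libraries and the library number as a replicate block, the step was 0.73 (SE 0.12, edgeR adjusted p = 0.000143). That fit called 22.3% of genes higher in CSF.

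Between neighbouring CNS sites Nfkbia missed the threshold when the library numbers were left out of account, and passed it when they were used as pairs. From CSF to meninges the log2 fold change was 0.85 (95% interval 0.36 to 1.33, adjusted p = 0.0715), and from meninges to parenchyma 0.72 (0.24 to 1.20, adjusted p = 0.0519). With the library number as a replicate block these were 0.83 (SE 0.11, adjusted p = 0.000452) and 0.70 (SE 0.11, adjusted p = 0.000563). With the block 5.25% of genes were called higher in meninges than in CSF, and 11.3% higher in parenchyma than in meninges. Within numbers 1, 2 and 3 the log2 CPM of Nfkbia was higher in meninges than in CSF by 0.98, 0.92 and 0.59, and higher in parenchyma than in meninges by 0.65, 0.87 and 0.60.

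Nfkb1, the gene of the precursor of a DNA-binding subunit, changed least. It stood at 433, 391 and 397 CPM in blood replicates 1, 2 and 3, at 475, 571 and 478 CPM in CSF, at 468, 566 and 462 CPM in meninges and at 589, 824 and 590 CPM in parenchyma. CSF and meninges libraries covered nearly the same range, all above blood and all below parenchyma. The mean ± SD (n = 3) was 407 ± 22.6 CPM for blood, 508 ± 54.5 for CSF, 499 ± 58.3 for meninges and 668 ± 135 for parenchyma. Parenchyma replicate 2 lay well above the other libraries of that compartment.

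Nfkb1 was higher in parenchyma than in blood, with a log2 fold change of 0.71 (SE 0.13, adjusted p = 0.000466), and higher than in CSF by 0.39 (SE 0.13, adjusted p = 0.0317). The latter call was lost without CSF replicate 1 (0.35, adjusted p = 0.103), CSF replicate 3 (0.35, adjusted p = 0.0969) or parenchyma replicate 2 (0.21, adjusted p = 0.158). From meninges to parenchyma the log2 fold change was 0.42 (95% interval 0.14 to 0.70, adjusted p = 0.0511), and 0.41 with the replicate block (SE 0.09, adjusted p = 0.00508). Without parenchyma replicate 2 it was 0.24 (adjusted p = 0.207, no block).

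From blood to CSF the log2 fold change of Nfkb1 was 0.32 (95% interval 0.04 to 0.60, adjusted p = 0.0674), and 0.31 with the block (SE 0.09, adjusted p = 0.0117), which called 22.3% of all genes higher in CSF. Within numbers 1, 2 and 3 the log2 CPM was higher in CSF than in blood by 0.13, 0.55 and 0.27 (SD 0.21). The block takes a number's effect as equal in all compartments, while number 2 was lowest in blood (391 CPM) and highest in CSF (571 CPM). From blood to meninges the log2 fold change of Nfkb1 was 0.29 (0.01 to 0.57, adjusted p = 0.0948). Between meninges and CSF Nfkb1 differed by -0.03, with an interval of -0.30 to 0.25 (adjusted p = 0.947). This leaves room for a meninges level from 0.81 to 1.19 times that of CSF. On the log2 scale CSF and meninges had covered 45.4% and 41.5% of the distance between the means of blood and parenchyma.

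Icam1, the adhesion molecule gene, rose in all 3 CNS sites against blood. Blood replicates 1, 2 and 3 lay close together at 57.4, 61.2 and 59.4 CPM. The CSF replicates were at 81.4, 94.0 and 87.9 CPM, the meninges replicates at 89.9, 118 and 93.5 CPM and the parenchyma replicates at 108, 159 and 113 CPM. All libraries from CNS sites lay above all blood libraries, while CSF overlapped with meninges and meninges with parenchyma. The spread grew with the level, from 59.3 ± 1.86 CPM (SD, n = 3) in blood over 87.8 ± 6.32 in CSF and 100 ± 15.2 in meninges to 127 ± 28.4 in parenchyma. The SD was 3.13% of the mean in blood and 22.4% in parenchyma.

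Against blood the log2 fold change of Icam1 was 0.56 in CSF (SE 0.14, adjusted p = 0.00593), 0.76 in meninges (SE 0.14, adjusted p = 0.000845) and 1.09 in parenchyma (SE 0.14, adjusted p = 2.32e-05). These 3 comparisons share the blood libraries. Parenchyma was also above CSF, by 0.53 (SE 0.14, adjusted p = 0.0092), and by 0.33 without parenchyma replicate 2 (adjusted p = 0.0367). Meninges and CSF differed by 0.19, with an interval of -0.10 to 0.49 (adjusted p = 0.527), and with the block by 0.19 (adjusted p = 0.183). Without meninges replicate 2 that difference was 0.07 (adjusted p = 0.851, no block). From meninges to parenchyma the log2 fold change was 0.34 (95% interval 0.04 to 0.63, adjusted p = 0.134), and 0.33 with the block (SE 0.08, adjusted p = 0.0112). Without parenchyma replicate 2 it was 0.13 (adjusted p = 0.506, no block).

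**Figure D2:**
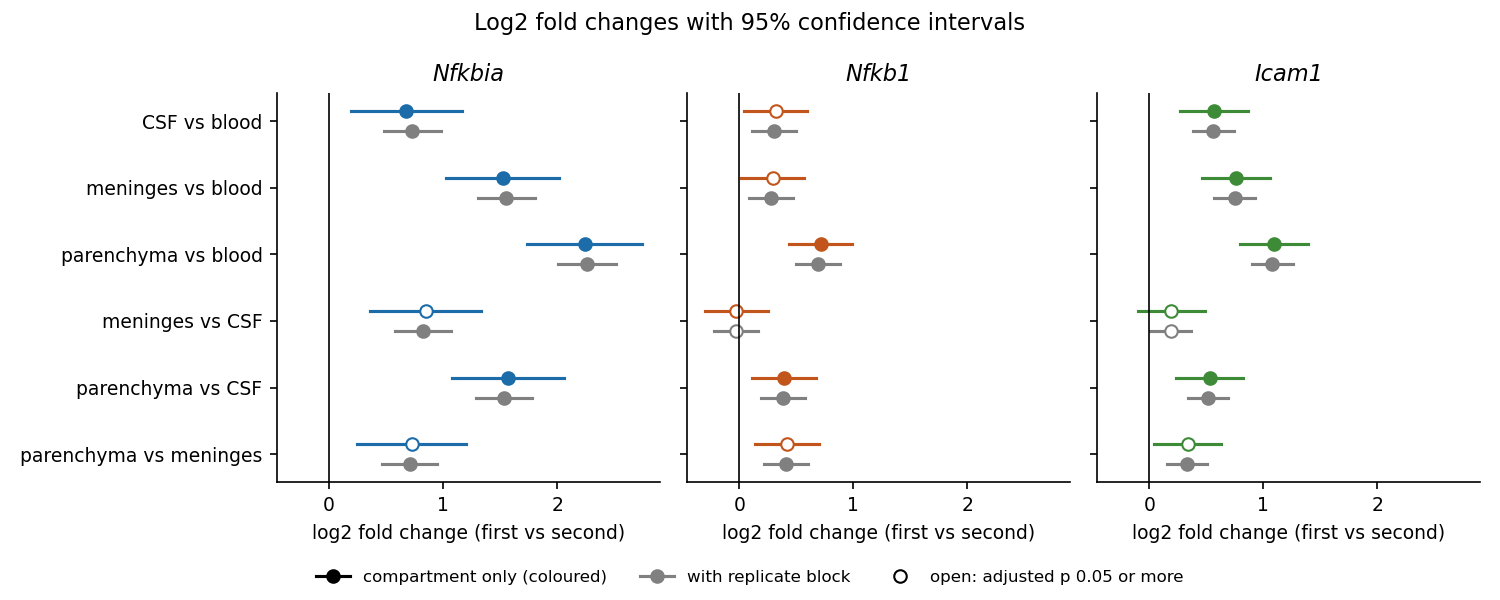
Log2 fold change (horizontal axis, first compartment against second) of each gene in 6 comparisons, with 95% confidence intervals, from the fit with compartment alone (coloured) and with the library number as a replicate block (grey). Open symbols had an adjusted p of 0.05 or more; all values but that of Nfkb1 between meninges and CSF lie above 0.

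Counted over the 3 genes, the calls fell on the comparisons with blood and on parenchyma against CSF. In CSF and in meninges 2 of 3 genes, Nfkbia and Icam1, were called higher than in blood, against 17.5% and 16.6% of all genes tested. In parenchyma all 3 were called higher than in CSF, against 17.1%. Between meninges and CSF edgeR called 0 of 3 and so did DESeq2, and 1.97% of all genes were called higher in meninges. At an unadjusted p under 0.05, Nfkbia was higher in meninges, as were 8.97% of all genes. Between parenchyma and meninges edgeR called 0 of 3, against 6.58% of genes called higher. At an unadjusted p under 0.05 all 3 were higher in parenchyma, as were 13.4% of all genes. DESeq2 called Nfkb1 there (adjusted p = 0.0135), and the edgeR fit with the block called all 3, against 11.3% of genes called higher in that fit. None of the 3 genes was called lower in the first-named compartment of any comparison. By the separation of libraries alone, all 3 libraries of CSF, meninges or parenchyma lay above all 3 of blood for each of the 3 genes, where this held for 23.7%, 23.5% and 28.1% of genes tested. Parenchyma lay above CSF for all 3 (22.1% of genes), parenchyma above meninges for Nfkbia and Nfkb1 (15.4%), and meninges above CSF for Nfkbia (11.5%).

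Nfkbia and Icam1 had the same set of calls over the 6 comparisons, higher in all 3 CNS sites than in blood and higher in parenchyma than in CSF. That set was shared by 199 of the genes tested (1.73%). Nfkb1 was called higher in parenchyma than in blood and than in CSF and in no other comparison, as were 340 genes (2.96%). The plot of the 3 genes among all genes tested places them against this background.

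**Figure D3:**
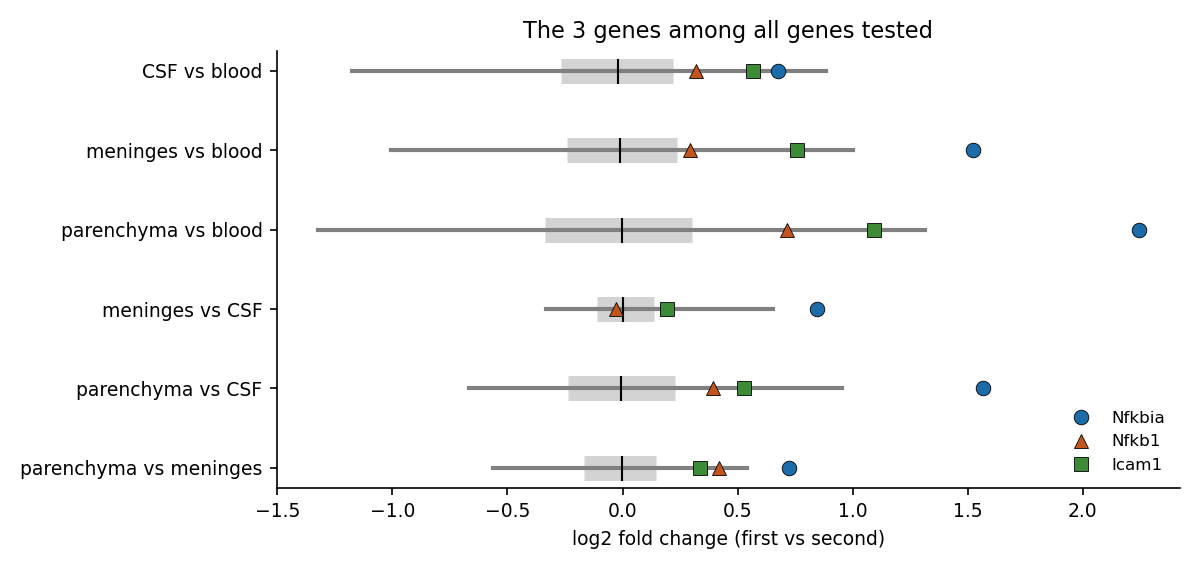
Log2 fold change (horizontal axis) of the 3 genes in each comparison, over the median (tick), the 25th to 75th percentile (light bar) and the 5th to 95th percentile (line) of the 11498 genes tested. Nfkbia lies beyond the 95th percentile in 5 comparisons and within it between CSF and blood.

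The 3 transcripts did not change in proportion. The log2 ratio of 2 genes' counts within a library is free of library size, and its change between compartments does not depend on gene length. The ratio of Nfkbia to Nfkb1, the inhibitor against the subunit precursor, had a mean ± SD (n = 3) of -2.26 ± 0.53 for blood, -1.84 ± 0.06 for CSF, -0.98 ± 0.19 for meninges and -0.68 ± 0.23 for parenchyma. It differed among the compartments in an exact permutation test over all 369600 divisions of the 12 libraries into groups (adjusted p = 0.00205 over the 3 ratios, against a smallest possible unadjusted p of 6.49e-05). The meninges and parenchyma libraries lay above all blood and CSF libraries, so Nfkbia counts gained on Nfkb1 counts mainly between CSF and meninges, by 0.86 on the log2 scale. Blood was widely spread in this ratio, from -2.75 in replicate 3 to -1.71 in replicate 2, and overlapped with CSF.

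Icam1 and Nfkb1 moved more nearly together. Their log2 ratio had a mean ± SD (n = 3) of -2.78 ± 0.12 for blood, -2.53 ± 0.08 for CSF, -2.32 ± 0.06 for meninges and -2.40 ± 0.04 for parenchyma. Small as these steps were, the ratio differed among the compartments (exact permutation adjusted p = 0.000584). That test took all compartments together and did not address single steps. The ratio was highest in meninges, where 2 of 3 libraries lay above all parenchyma libraries. From blood to meninges it rose by 0.46, and from meninges to parenchyma it changed by -0.08, with overlapping libraries and differences of -0.06, -0.11 and -0.08 within numbers 1, 2 and 3.

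The log2 ratio of Icam1 to Nfkbia fell from -0.52 ± 0.50 (SD, n = 3) in blood and -0.69 ± 0.06 in CSF to -1.34 ± 0.23 in meninges and -1.72 ± 0.25 in parenchyma (exact permutation adjusted p = 0.00227). Within numbers 1, 2 and 3 it was lower in parenchyma than in CSF by 1.22, 1.03 and 0.83. Blood replicate 3, with its low Nfkbia count, had the highest ratio, 0.01.

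**Figure D4:**
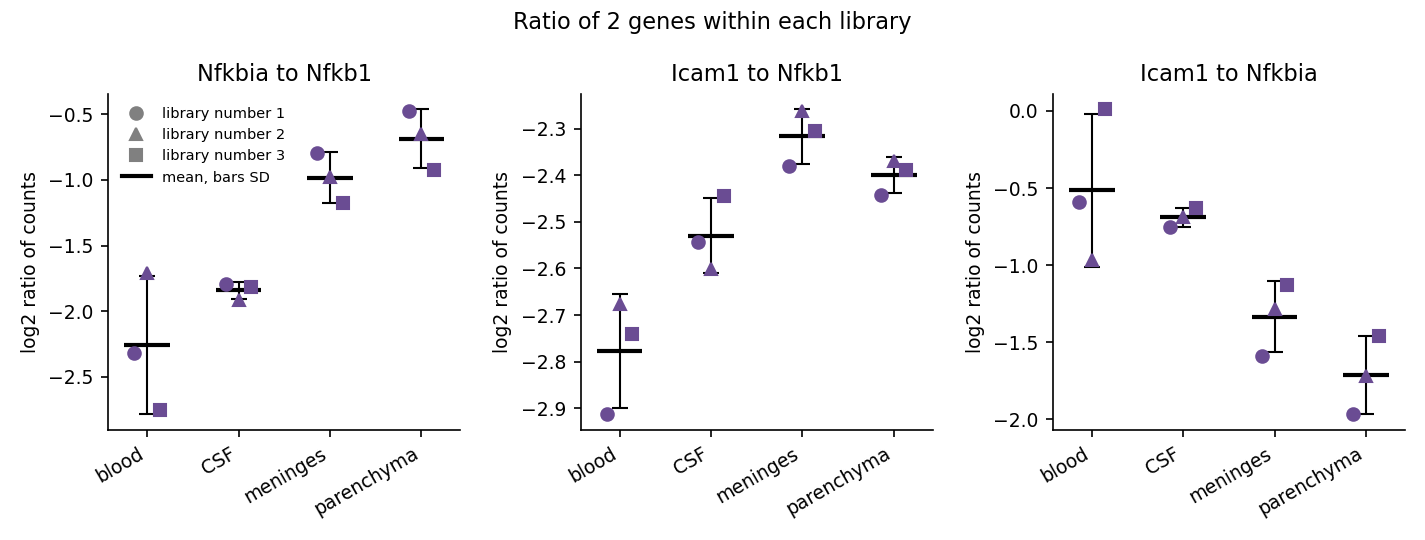
Log2 ratio of the counts of 2 genes (vertical axis) in each library by compartment, with the mean and SD. The ratio of Nfkbia to Nfkb1 separates meninges and parenchyma from blood and CSF, while the ratio of Icam1 to Nfkb1 spans a narrower range, from -2.91 to -2.26.

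Within compartments the levels of Nfkbia and Icam1 moved with the library number, and those of Nfkb1 did so outside blood. The library numbered 2 had the highest level of Nfkbia and of Icam1 in all 4 compartments, as was so for 9.61% of genes tested. For Nfkb1 it was highest in 3 compartments and lowest in blood, and 24.3% of genes tested had it highest in 3 or more compartments. For Nfkbia the order was number 2, then 1, then 3 in each compartment, and for Icam1 it was 2, then 3, then 1. Some of these orders rest on differences near or within counting error. In CSF, Nfkbia was at 137 and 136 CPM in replicates 1 and 3, with counting errors of 1.81% and 2.28%. In blood, Icam1 was at 57.4, 61.2 and 59.4 CPM in replicates 1, 2 and 3, with counting errors of 3.14%, 3.06% and 3.52%. An order repeated in all 4 compartments was found for 5.03% of genes tested. Parenchyma replicate 2 deviated from its compartment mean by 0.35 for Nfkbia, 0.32 for Nfkb1 and 0.35 for Icam1 on the log2 scale. What the number stands for is not given, and its part in the values was not tested beyond the block.

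**Figure D5:**
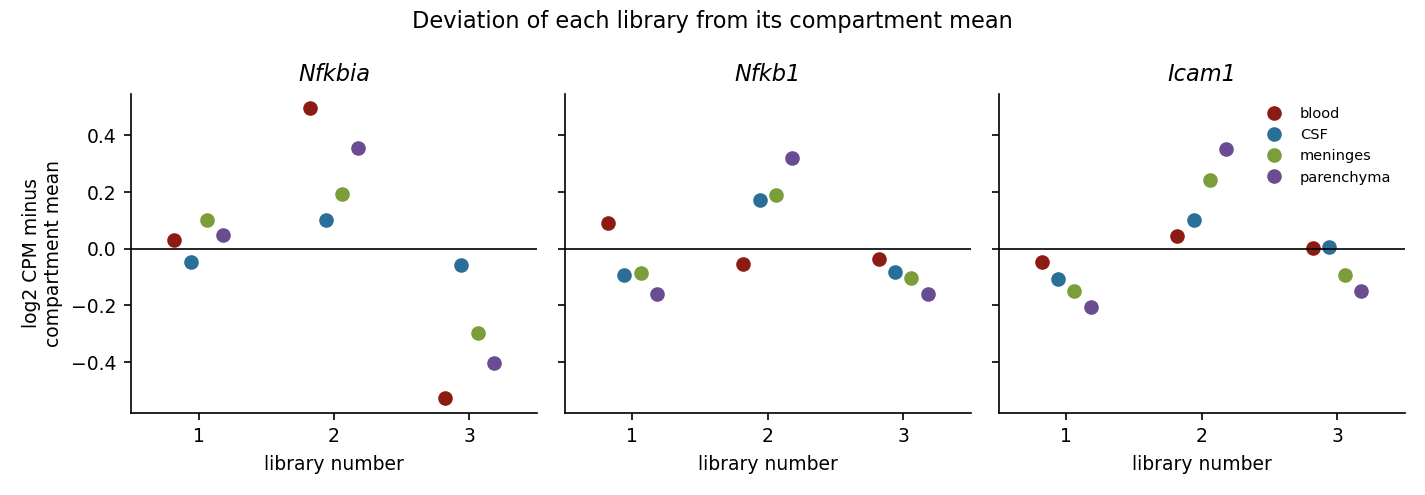
Difference of each library's log2 CPM from its compartment mean (vertical axis) by library number (horizontal axis), coloured by compartment. For Nfkbia and Icam1 all 4 libraries numbered 2 lie above 0, and for Nfkbia all 4 libraries numbered 3 lie below 0.

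As a description over the 12 libraries, which share compartments and numbers, the log2 CPM of Icam1 correlated at 0.93 with that of Nfkb1 and at 0.91 with that of Nfkbia, and Nfkbia with Nfkb1 at 0.83 (Pearson). After the compartment means were subtracted, Icam1 and Nfkb1 still correlated at 0.91, against 0.50 for Icam1 and Nfkbia and 0.49 for Nfkbia and Nfkb1. Among 8077 other genes with a mean of at least 10 CPM, Icam1 ranked 23 by likeness to Nfkb1 and 188 by likeness to Nfkbia. The 3 genes most like each one had correlations of 0.987 to 0.995 with Nfkbia, 0.980 to 0.994 with Icam1 and 0.959 to 0.964 with Nfkb1, and are not named because their identifiers could not be paired with names. A correlation above 0.9 was found for 283 genes with Nfkbia, 251 with Icam1 and 69 with Nfkb1.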

How the data were processed

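Per the labels, messenger RNA libraries (Illumina TruSeq) were made from sorted T cells. The authors deposited 1 file of raw counts per library, as whole numbers for each gene. CASAVA 1.8.2, DESeq2, HTSeq, SAMtools and STAR appear in the submitters' processing notes, with no roles. The genome build, annotation or strand use is not given in the sources used here, so reads of overlapping antisense genes may be mixed in. The 5 summary lines closing each file were left out, among them 35.8% to 65.2% of entries listed as aligned to several places, 15.5% to 21.9% outside genes and 0.0412% to 0.0911% ambiguous.

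The 3 genes and all gene lists were chosen with earlier results of these data known. The reference table pairs 0 of its 47357 rows with an Ensembl identifier, so the planned lists of NF-kB pathway genes and cell type markers could not be used, nor could the naming rule beyond the 3 genes (the 3 genes most like each by correlation of log2 CPM, prior count 2).

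Counts were fitted in R 4.3.3 with edgeR 4.0.16 (filterByExpr, TMM, quasi-likelihood test, all 12 libraries, compartment as the only term), with Benjamini-Hochberg adjustment over 11498 genes. Intervals (95%) and SEs were derived from the F statistic. Log2 ratios used a pseudocount of 0.5 and exact permutation tests. Counting error leaves out amplification, as reads carry no molecular identifiers. The fit was tested on simulated data with changes set in parenchyma against blood or in meninges against CSF. It recovered 64.2% and 65.7% of 1.5-fold changes, and 92.5% of 2-fold changes in each. Of its calls, 6.59% and 5.56% were false. The simulated libraries carried no effect of library number, unlike what the real ones hint at. Changes of 1.5-, 2- and 4-fold were set in only 67, 67 and 66 genes, of 11371 and 11364 tested. In the real libraries 50.3% and 2.51% of genes were called in these comparisons, so the rates need not carry over.

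Whether numbers pair libraries was checked by correlating same-numbered libraries' deviations from their compartment means. All 3 correlations exceeded 0.1 in 5 of the 6 comparisons (lowest 0.149), a hint from the data and not from the labels. For meninges and blood the lowest was 0.0766, under that limit. The text of the report therefore quotes the block only for the other 5, the plot of fold changes shows it for all 6, and the value for meninges and blood is given with the alternatives. Alternatives were other scaling, no filter, DESeq2 1.42.0, other thresholds, 2-group fits, the block and left-out libraries.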

Additional observations from a re-analysis of the deposited data

How the results depend on the processing

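No called value reversed; Nfkb1 between meninges and CSF, called nowhere, ran from -0.13 to 0.06. The F tests of all 3 genes and the 3 ratio tests kept their calls under every alternative run, with adjusted p of at most 0.0117, as did Nfkbia from blood to meninges, from blood to parenchyma and from CSF to parenchyma and Icam1 from blood to parenchyma. With the replicate block, log2 fold changes passed that had not: Nfkbia 0.83 (meninges against CSF) and 0.70 (parenchyma against meninges), Nfkb1 0.31 (CSF against blood), 0.28 (meninges against blood, where 1 of the 3 same-numbered correlations was under 0.1) and 0.41 (parenchyma against meninges), and Icam1 0.33 (parenchyma against meninges). The block changed no other call. Without the filter, whose adjusted p-values are not comparable, the same 6 passed, at 0.82, 0.74, 0.35, 0.30, 0.44 and 0.35. In fits of only the 2 groups, Nfkb1 passed at 0.34 (CSF against blood) and 0.32 (meninges against blood), and Nfkbia at 0.84 (meninges against CSF) and 0.72 (parenchyma against meninges). DESeq2 added Nfkb1 at 0.34 (CSF against blood) and 0.42 (parenchyma against meninges, also called with RLE scaling, 0.42).

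At an adjusted p under 0.01, Nfkbia 0.68 (CSF against blood) and Nfkb1 0.39 (parenchyma against CSF) were lost. Beyond 1.5-fold, the calls of Nfkbia (0.68) and Icam1 (0.56) in CSF against blood, Icam1 in meninges against blood (0.76), Nfkb1 in parenchyma against blood (0.71) and Nfkb1 (0.39) and Icam1 (0.53) in parenchyma against CSF were lost, as both settings ask for more. Without blood replicate 3 and meninges replicate 2, Nfkbia was 0.47 from blood to CSF, no longer called, and 0.81 from meninges to parenchyma, called. Without the 4 libraries numbered 2, Nfkb1 passed at 0.20 (CSF against blood) and 0.34 (parenchyma against meninges), Nfkbia at 0.80 (meninges against CSF) and 0.63 (parenchyma against meninges) and Icam1 at 0.27 (parenchyma against meninges).

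With 1 library left out in turn, Nfkbia ran from 0.46 to 0.97 from blood to CSF, 0.75 to 0.98 from CSF to meninges (called without blood replicate 2 or 3, 0.84 each) and 0.53 to 0.90 from meninges to parenchyma (called without blood replicate 2 or 3, 0.72 each, or parenchyma replicate 3, 0.90). Nfkb1 ran from 0.21 to 0.49 from CSF to parenchyma, 0.24 to 0.53 from meninges to parenchyma (called without CSF replicate 2, 0.42, meninges replicate 2, 0.53, or parenchyma replicate 1 or 3, 0.50 each), 0.23 to 0.37 from blood to CSF (called without meninges replicate 2, 0.33, or parenchyma replicate 1 or 2, 0.34 each) and 0.21 to 0.35 from blood to meninges (called without parenchyma replicate 2, 0.31). Icam1 ran from 0.13 to 0.47 from meninges to parenchyma and 0.07 to 0.27 from CSF to meninges, not called in either.

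Counts of all genes called moved over 1.5 times for meninges against CSF (289, but 1046 with the block, 890 without the filter, 505 with DESeq2, and 176, 139 or 175 without CSF replicate 1, 2 or 3 and 126 or 130 without meninges replicate 1 or 3) and parenchyma against meninges (1375, but 2428 with the block, 899, 883 or 739 without meninges replicate 1, 2 or 3, 888 or 821 without parenchyma replicate 1 or 2, and 764 without blood replicate 3 and meninges replicate 2). The cause of these changes was not tested. Counting error was at most 3.54% for the 3 genes in any library.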
